A study of Homo sapiens with 24 samples.

Results

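The regions described here are stretches of the hg19 genome in which histone H3 lysine 27 acetylation (H3K27ac) was called in both libraries of Eahy926 cells treated with tumor necrosis factor alpha (TNFa), but in no Eahy926 control library and not in both TNFa libraries of TeloHAEC cells. Autosomal peaks with a -log10 q of 2 or more from the 20 ChIP libraries were merged wherever they overlapped by at least 1 bp, which gave 86917 regions. Of these, 624 had a peak in both Eahy926 TNFa libraries and in none of the 4 Eahy926 controls. Leaving out the 268 that also had a peak in both TeloHAEC TNFa libraries left 356 regions, 57.1% of the 624. The regions were thus chosen by their peak calls and -log10 q, and their values in Eahy926 TNFa, Eahy926 control and TeloHAEC TNFa libraries are a description and were not tested.

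Eahy926 is a hybrid line made by fusing endothelial cells with a lung carcinoma line, so its chromatin is not that of a purely endothelial cell, and TeloHAEC are aortic endothelial cells immortalized with telomerase. Each line was left untreated, or was treated for 24 h with 10 ng/ml interleukin 1 beta (IL1b) or 10 ng/ml TNFa. A further group of each line had its vascular endothelial growth factor (VEGF) changed. VEGF was added to the Eahy926 medium, which normally has none, and was left out of the TeloHAEC medium, where it is a standard component. Untreated Eahy926 cells thus grew without VEGF and untreated TeloHAEC cells with it. All cells were parental cells of their line. Libraries were prepared on 2 days. Day 0 held 2 control and 2 input libraries of each line, and day 1 held 2 libraries each of control, IL1b, TNFa and VEGF change. Markers of cell type were not analysed here, since no gene annotation of the files' build was at hand, and for the same reason regions are named by position only.

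TNFa binds receptors on the cell surface and activates NF-kB and stress kinase pathways, which in endothelial cells switch on genes for leukocyte adhesion molecules, chemokines and feedback inhibitors. IL1b binds another receptor but signals through many of the same proteins. H3K27ac is carried by nucleosomes at active promoters and enhancers, and regions that gain it after a cytokine often hold enhancers to which activated transcription factors recruit histone acetyltransferases.

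The day 0 ChIP libraries were deeper than those of day 1. Day 0 ChIP libraries held 18387194 to 21135399 tags and 46412 to 56923 autosomal peaks over 33.0 to 39.2 Mb, against 3843129 to 7122108 tags and 27425 to 53697 peaks over 13.0 to 29.5 Mb on day 1. The Eahy926 TNFa lists were close in depth, with 6374973 tags and 20.8 Mb under peaks in replicate 1 and 6343896 tags and 25.0 Mb in replicate 2. The shortest lists were TeloHAEC control replicate 1 of day 1 with 13.0 Mb and Eahy926 IL1b replicate 2 with 14.1 Mb. Input libraries held 92 to 123 peaks over 47.1 to 56.5 kb. A single region of the 356 overlapped an input peak, chr16:2509784-2510563, chosen here after its values were seen.

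The regions were short and of low enrichment. Their median width was 521 bp, with a range from 274 to 1368 bp, against 1339 bp for all 26483 regions with a peak in both Eahy926 TNFa libraries. The median summit pileup, the number of stacked fragments at a peak's highest point, was 10 in TNFa replicate 1 and 11 in replicate 2. The median fold enrichment over the library's own background was 4.30 and 4.32, and these values are the authors'. The median -log10 q was 3.78 in replicate 1 and 4.12 in replicate 2, against 7.80 and 9.37 over the 26483 regions. The smaller score of the pair was under 3 in 125 of the 356 regions (35.1%), against 9.81% of the 26483. Only 46 regions (12.9%) had a score of 5 or more in both libraries, and 1 had 10 or more. Ranked by -log10 q, the median region stood at percentile 21.8 of the list of replicate 1 and 24.8 of that of replicate 2.

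**Figure D1:**
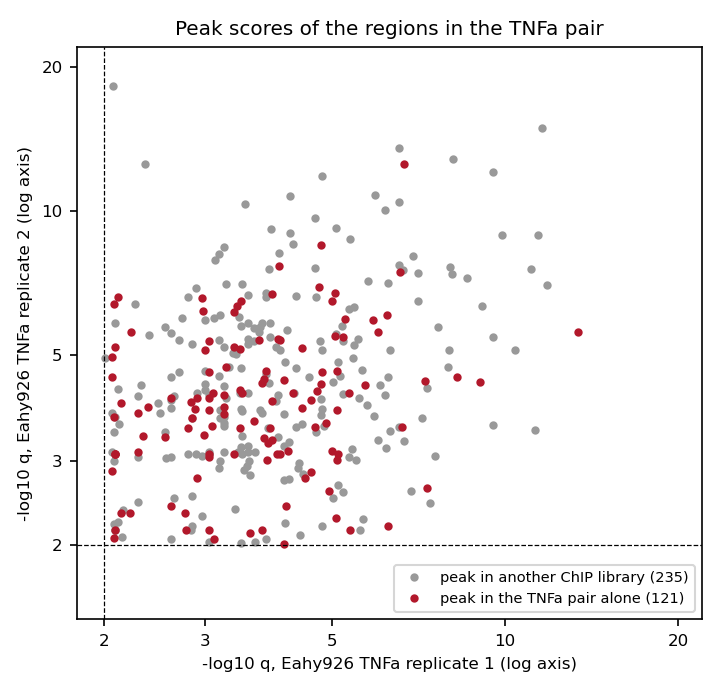
Peak scores of the 356 regions in Eahy926 TNFa replicate 1 (x axis) and replicate 2 (y axis), as -log10 q on log axes. Each point is a region, red points are the 121 regions with a peak in no other ChIP library, and dashed lines mark the threshold of 2. Most points lie below 5 on at least 1 axis.

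The scores of the replicates correlated weakly over a narrow range, and their summits lay no closer together than over the 26483 regions. The summits of the 2 libraries were a median of 71 bp apart and within 100 bp of each other in 220 regions (61.8%), against 62.8% of the 26483. The choice required both peaks in 1 merged region, of a median width of 521 bp, so short distances follow in part from it. Across the 356 regions, Pearson's r of log10 of the scores was 0.30 and Spearman's rho of the scores 0.26, against 0.76 and 0.75 across the 26483. All 356 share the same lower threshold, and the values of 1 library share its depth. The choice used these scores, and their range was narrow. The highest were 13.4 and 18.3, against 170 and 149 over the 26483. A narrow range by itself can lower a correlation, so the difference from the 26483 was not tested. At chr1:76930216-76930785 the score was 2.08 in replicate 1 and 18.3 in replicate 2, the highest of the 356 in that library.

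The edge of the choice ran through many similar regions. The 3 regions just inside were chr12:89461562-89461896, chr1:218711133-218711730 and chr22:29138714-29139099, whose smaller score was between 2.01 and 2.02. Another 436 regions met every criterion but had a peak in exactly 1 Eahy926 control, which was a day 0 library for 166 and a day 1 library for 270. Just outside among these stood chr15:83736184-83736721, with a control score of 2.01 and TNFa scores of 4.43 and 5.87, and chr6:91499749-91500298 and chr7:45837341-45837817, each with a control score of 2.02. A further 2602 regions lacked a peak in 1 of the TNFa libraries, with the peak in replicate 1 alone for 819 and in replicate 2 alone for 1783. Of the 356 themselves, 50 (14.0%) held a deposited Eahy926 control peak below the threshold. The 2 day 0 controls had such weak peaks in 9 and 6 regions and the day 1 controls in 19 and 20.

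The same criteria against the 4 controls kept fewer regions under the other treatments of Eahy926. With TNFa, 624 of the 26483 regions with a peak in both libraries were kept (2.36%). With VEGF it was 237 of 25641 (0.924%), and with IL1b 43 of 19480 (0.221%). The 3 counts share the same 4 control libraries, and the IL1b count rests partly on the short list of IL1b replicate 2.

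For the regions named here, the length under peaks is given in scaled bp: the bp of the region under peaks in a library, divided by all bp under peaks in that library and multiplied by the mean of that total over the 20 ChIP libraries. The region with the most TNFa signal by length was chr17:54226939-54227991, with 1053 scaled bp in TNFa replicate 1 and 1030 in replicate 2. Its only other peak was in VEGF replicate 2, with 517 scaled bp. At chr12:90125034-90126401, the widest of the 356, the TNFa libraries had 1102 and 514 scaled bp. That region was also under a peak in both day 0 TeloHAEC controls, with 332 and 272 scaled bp, and in both TeloHAEC IL1b libraries, with 763 and 417.

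The other regions among the 10 with the largest mean scaled length fell into similar kinds. At chr12:48472454-48473413 the TNFa pair had 791 and 657 scaled bp and no other ChIP library had a peak. At chr17:41810572-41811273, where the TNFa pair had 784 and 635 scaled bp with scores of 9.53 and 12.1, both TeloHAEC IL1b libraries (290 and 296) and TeloHAEC TNFa replicate 2 (295) also had a peak. At chr14:32895340-32896601 the TNFa values were 729 and 815, and 8 other ChIP libraries had a peak, 6 of them TeloHAEC libraries. This region missed the exclusion only because TeloHAEC TNFa replicate 1 had no peak, while replicate 2 had 953 scaled bp, more than either Eahy926 library. The replicates also lay far apart at chr12:76052950-76053928, with 408 and 958 scaled bp, at chr21:30731288-30732203, with 1024 and 537, and at chr3:15480733-15481503, with 855 and 506. At chr7:33972781-33973624 they had 794 and 569 and at chr20:7480210-7480954 they had 624 and 729. Over all 356 regions the mean of the TNFa pair ranged from 282 to 1040 scaled bp, with a median of 391.

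A peak in no ChIP library other than the Eahy926 TNFa pair was found for 121 regions (34.0%), so "only" holds in this strict sense for about 1 region in 3. Of the rest, 85 had a peak in exactly 1 other library, 61 in exactly 2, and 32 (8.99%) in 5 or more. Among the 121, the 5 with the highest smaller score were as follows. At chr3:114648329-114648887 the scores were 6.67 and 12.5, the pileups 11 and 19 and the fold enrichments 6.20 and 8.07. At chr11:27943320-27943721 the scores were 6.56 and 7.44, and at chr1:93348177-93348587 they were 6.23 and 6.07. In these regions both TNFa libraries scored well above the threshold and the other ChIP libraries had no peak. At chr7:3995349-3995830 the scores were 5.88 and 5.92 with 405 and 401 scaled bp, and at chr16:11172864-11173445 they were 13.4 and 5.59 with pileups of 23 and 14.

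**Figure D2:**
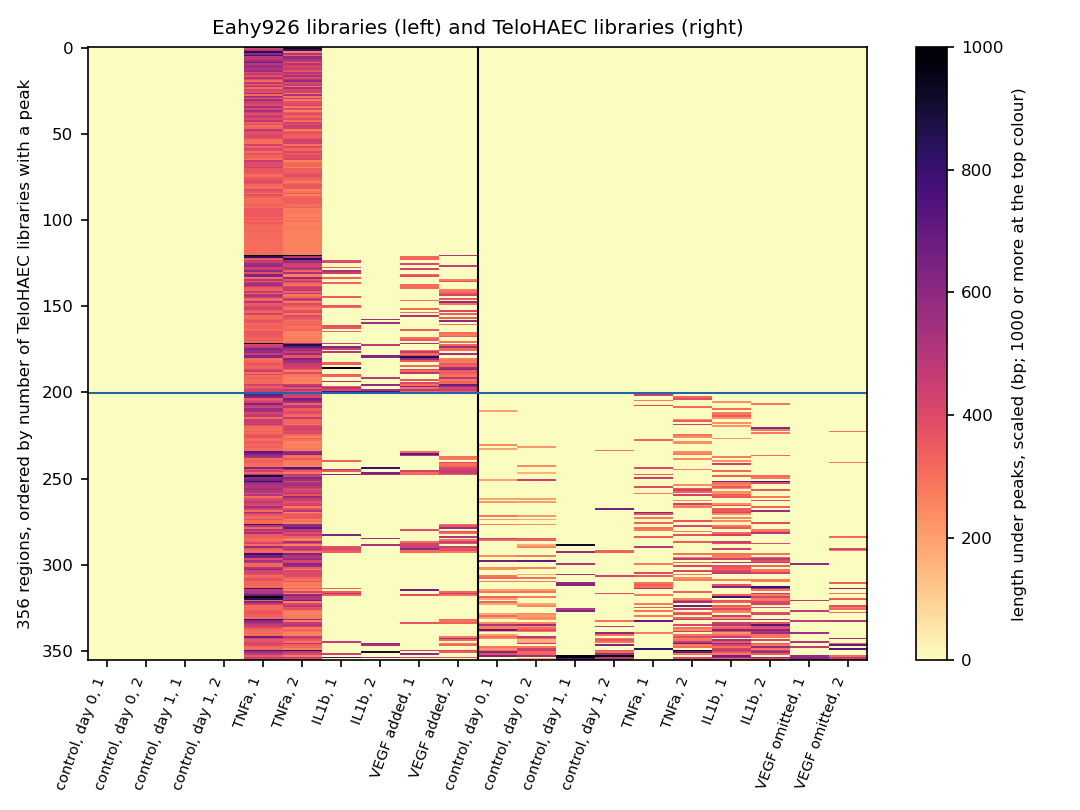
Scaled length under peaks (colour, bp) of the 356 regions (rows) in the 20 ChIP libraries (columns, replicates 1 and 2 of each group). Rows above the blue line are the 201 regions with no peak in any TeloHAEC library, and the first 121 rows have a peak in the Eahy926 TNFa pair alone.

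The regions lay nearer to chromatin acetylated in every Eahy926 control than did all regions without an Eahy926 control peak, by their medians. The 268 regions with peaks in both TeloHAEC TNFa libraries did so too. Regions with a peak in all 4 Eahy926 controls are called constant here. The median gap from a TNFa-gained region to the nearest constant region was 19.6 kb, against 28.7 kb over all 37068 regions without an Eahy926 control peak. More than 50 kb away were 99 regions (27.8%, against 35.5%), and more than 200 kb away were 22 (6.18%, against 10.4%). The gap was 1 kb or less for 43 regions (12.1%), against 4.48% of the 268 regions with peaks in both TeloHAEC TNFa libraries and 5.82% of the 37068. Those 43 had a median pileup of 16 and 19 in the TNFa libraries with fold enrichments of 3.34 and 3.08. The 313 farther away had a lower pileup, 9 and 10, and a higher fold enrichment, 4.34 and 4.40. The fold is taken against a local background that can include a neighbouring peak. Weak control peaks lay in 8 of the 43 (18.6%) and in 42 of the 313 (13.4%).

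Several of the highest pileups belonged to regions of this kind. At chr20:7480210-7480954 the pileups were 59 and 61 and the fold enrichments only 3.20 and 2.70, with a constant region 251 bp away and a weak peak in an Eahy926 control. At chr12:76052950-76053928 the pileup was 45 in both libraries with fold enrichments of 3.10 and 2.29, and the gap was 229 bp. At chr3:15480733-15481503 pileups of 35 and 31 went with a gap of 398 bp. In all 3 a separate peak was called close to a constant region.

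**Figure D3:**
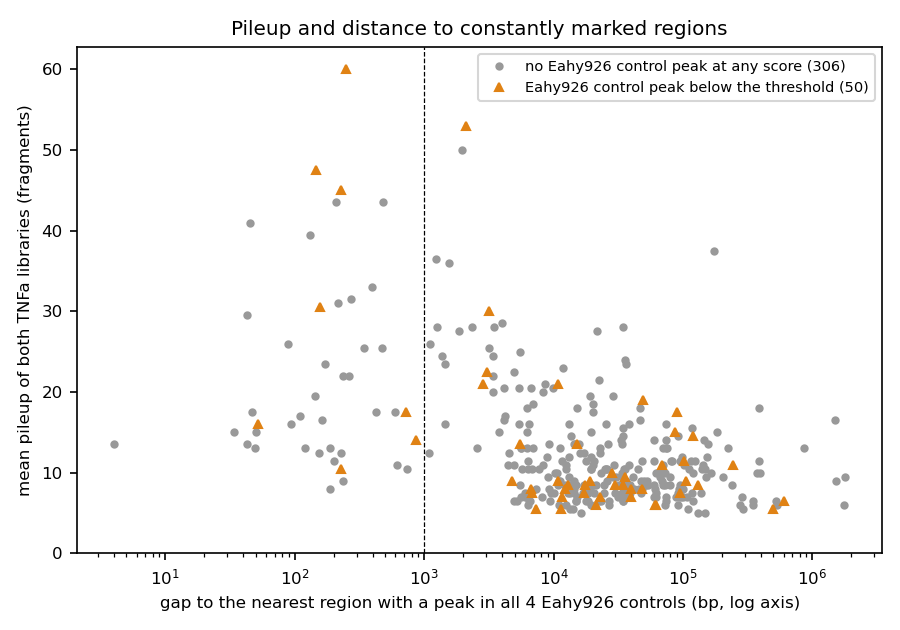
Mean summit pileup of both Eahy926 TNFa libraries (y axis, fragments) against the gap to the nearest region with a peak in all 4 Eahy926 controls (x axis, bp, log axis) for the 356 regions. Orange triangles are the 50 regions with an Eahy926 control peak below the threshold, and the dashed line marks 1 kb, within which 43 regions lie.

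Neighbouring constant regions were set side by side in TNFa and day 1 control libraries. Constant regions were selected on a peak in these controls, which favours lower values with TNFa, so their calls are read only against those of other constant regions and their values are a description. Within 10 kb of the 356 regions lay 115 constant regions. Of these, 1 was higher and 1 lower with TNFa at an adjusted p under 0.05 (limma), 0.870% each way, against 0.112% higher and 0.855% lower of the 23150 constant regions. Over all 68601 regions tested, which were not selected in this way, it was 1.14% and 0.488%. At chr16:66440577-66443439 the TNFa libraries had 942 and 896 scaled bp and the controls 466 and 319, a log2 difference of 0.93. At chr16:83436329-83437510 the TNFa libraries had no peak and the controls had 485 and 346 scaled bp, a log2 difference of -1.61. In both the groups did not overlap. The count of 2 became 1 without control replicate 1, 4 without TNFa replicate 1 and 9 without TNFa replicate 2.

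The regions were spread over all 22 autosomes. Chromosome 2 held 36 (10.1%, against 8.07% of the 26483), chromosome 20 held 17 (4.78% against 3.21%), chromosome 9 held 7 (1.97% against 4.02%) and chromosome 13 held 4 (1.12% against 1.86%). Joined where less than 50 kb apart, 318 stood alone, 16 stretches held 2 and 2 stretches held 3. The stretch chr1:76930216-76937254 lay 388383 bp or more from any constant region. Its 3 regions had TNFa scores of 2.08 and 18.3, 4.13 and 3.22, and 3.85 and 3.02. The summits of the replicates there were 31, 18 and 6 bp apart. TeloHAEC TNFa replicate 2 had a peak over the first and the second, with 358 and 290 scaled bp, and TeloHAEC IL1b replicate 1 over the first alone.

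The stretch chr20:49016267-49055575 held the region with the highest smaller score of all 356, chr20:49016885-49017513. Its scores were 11.6 and 14.9, its pileups 24 and 31, and its scaled lengths 602 and 616 bp. It had weaker company in TeloHAEC, with 455 scaled bp in TNFa replicate 1 and 278 in IL1b replicate 2. Next to it, chr20:49016267-49016819 had scores of 5.92 and 10.8 and 1 further peak, in TeloHAEC IL1b replicate 1. The last, chr20:49055209-49055575, lay 209 bp from a constant region, with pileups of 46 and 41 and fold enrichments of 2.31 and 2.03.

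In the other treated Eahy926 libraries, which the choice did not use, a minority of the regions had a peak. With VEGF, 55 regions (15.4%) had a peak in replicate 1 and 82 (23.0%) in replicate 2, and 28 had one in both. With IL1b it was 43 (12.1%) in replicate 1, 18 (5.06%) in replicate 2 and 4 in both. Over all merged regions the shares were 33.7% and 37.2% with VEGF and 32.0% and 25.2% with IL1b. Those include regions with an Eahy926 control peak, which the choice left out, so lower shares among the 356 follow in part from the choice. Of the 37068 regions without an Eahy926 control peak, 237 had a peak in both VEGF libraries and 43 in both IL1b libraries. The 356 held 28 and 4 of these, or 7.87% and 1.12% of the 356, which are larger shares than over the 37068. The 37068 need no peak in any Eahy926 library, while the 356 were chosen on Eahy926 peaks. These shares are thus not like for like either, and the difference was not tested. The 2 IL1b libraries differed in length, with 19.5 and 14.1 Mb under peaks, and the 2 VEGF libraries had 20.5 and 24.0 Mb. The peaks over the 356 regions were weak, with a median -log10 q of 3.33 and 3.70 with VEGF and 3.11 and 2.71 with IL1b. The lists they come from had medians of 6.36 and 6.78 with VEGF and 6.14 and 5.11 with IL1b. Altogether 129 regions (36.2%) had a peak in an IL1b or VEGF library of Eahy926, and 37 (10.4%) in both kinds.

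**Figure D4:**
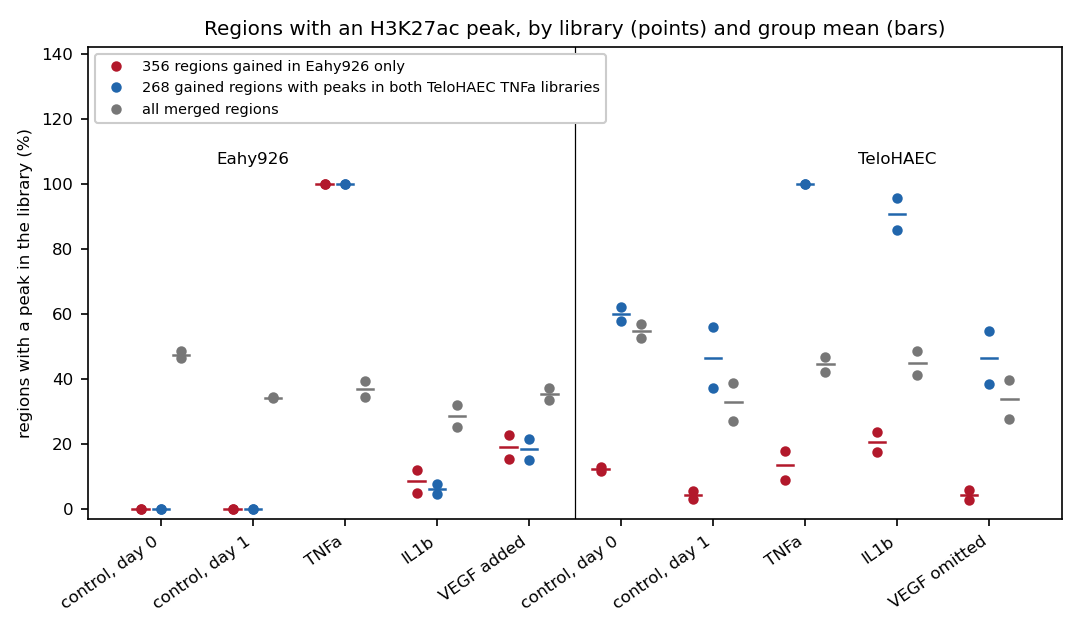
Share of regions with an H3K27ac peak (y axis, %) in each ChIP library (points, 2 per group) with the group mean (short bars), for the 356 regions (red), the 268 with peaks in both TeloHAEC TNFa libraries (blue) and all 86917 merged regions (grey). Values of 0% in Eahy926 controls and 100% in Eahy926 TNFa are fixed by the choice, as is 100% of the blue set in TeloHAEC TNFa. The grey set includes regions with an Eahy926 control peak, which the choice kept out of the red and blue sets. The red points reach 23.9% at most in libraries the choice did not use, in TeloHAEC IL1b replicate 1.

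The 4 regions with a peak in both IL1b libraries also had one in both VEGF libraries, and are named after their values were seen. At chr2:162256882-162257402 the scaled lengths were 599 and 552 bp with IL1b, 500 and 496 with TNFa and 313 and 349 with VEGF. At chr4:129196829-129197553 they were 754 and 749 with IL1b, 439 and 391 with TNFa and 308 and 350 with VEGF. In both, the IL1b libraries were the highest and the VEGF libraries the lowest of the 3 treatments. At chr6:52374946-52375452, which lay 145 bp from a constant region and had a weak control peak, the treatments overlapped, with 407 and 536 with IL1b, 435 and 475 with TNFa and 481 and 456 with VEGF. At chr10:71579664-71580603, 52 bp from a constant region, 11 other ChIP libraries had a peak, the most of any of the 356.

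IL1b was compared with VEGF within Eahy926 to ask whether another cytokine marked the regions more than a change in growth factor did. Of the 356 regions, 1 was higher with IL1b and 12 were higher with VEGF (limma, adjusted p under 0.05). This is 0.281% and 3.37%, against 0.163% and 0.831% of the 68601 regions tested. The choice fixed the Eahy926 controls at 0 in all 356, which can lower their SD, as it was pooled over all groups. Their shares and those of all regions are thus not like for like. All 356 entered the fit because of their TNFa peaks, but 129 had a peak in any of the 4 compared libraries, so the other regions could not be called.

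The region higher with IL1b was chr4:129196829-129197553, with the scaled lengths given above, and the groups did not overlap. Its log2 difference was 0.85 (SE 0.077, limma adjusted p = 7.3e-05). The 12 regions higher with VEGF had no peak in either IL1b library, and 274 to 627 scaled bp in the VEGF libraries. The largest difference was at chr4:83807981-83808725, with 402 and 627 scaled bp with VEGF, a log2 difference of -1.82 (SE 0.119, limma adjusted p = 4.4e-06). At chr17:69629996-69630455 the VEGF values were 487 and 351 (log2 difference -1.62) and at chr2:225813865-225814358 they were 438 and 387 (log2 difference -1.61). Differences from a group at 0 are set by the 200 bp added before taking logs. A group at 0 adds no spread, and the SD was pooled over all 10 groups, most of them at 0, so the SEs of such regions are small. With the compared groups fitted alone, none of the differences named here was called. In the order given, the limma adjusted p was then 0.13, 0.31, 0.22 and 0.062. Leaving out any of the compared libraries raised the count, and whether list length played a part was not tested. The direction did not hold without IL1b replicate 2, whose list was short. Without it 14 regions were higher with IL1b and 14 with VEGF, and without IL1b replicate 1 it was 4 and 16. Without VEGF replicate 1 or 2 the split was 1 and 35 or 1 and 30, and with the compared groups fitted alone 0 and 4.

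In TeloHAEC, 201 regions (56.5%) had no peak in any of the 10 ChIP libraries and 155 (43.5%) had at least 1. The controls of day 0 had a peak over 42 and 46 regions and those of day 1 over 11 and 20, beside 35.8 and 39.2 Mb under peaks on day 0 and 13.0 and 22.5 Mb on day 1. IL1b libraries had a peak over 85 and 63 regions, and libraries without VEGF over 10 and 21. TNFa libraries had a peak over 32 and 64, in 96 different regions, since the choice excluded regions with both. Thus 96 of the 356 (27.0%) were kept while 1 of the 2 TeloHAEC TNFa libraries had a peak.

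Among the regions with TeloHAEC peaks some had them with IL1b, some in controls and some in both. A peak in both IL1b libraries was present in 43 regions (12.1%), and 32 of these also had a peak in 1 TeloHAEC TNFa library. No TeloHAEC control of either day had a peak in 20 of the 43. Conversely 68 regions (19.1%) had a peak in at least 1 TeloHAEC control. A single region, chr8:1777187-1778136, had one in all 4, with 639 and 568 scaled bp on day 0 and 1400 and 1004 on day 1. In the Eahy926 TNFa libraries it had 351 and 270.

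IL1b was compared with the day 1 control in TeloHAEC to ask whether the regions respond to a cytokine in the other line. Of the 356 regions, 23 were higher and 1 lower with IL1b (limma, adjusted p under 0.05), or 6.46% and 0.281%, against 3.92% and 1.02% of all 68601 tested. Here too the Eahy926 controls fixed at 0 can lower the pooled SD of the 356, so these shares are not like for like. Among the 268 regions with peaks in both TeloHAEC TNFa libraries, 72 were higher and 1 lower. These sets differ by the choice, which took regions with a peak in both TeloHAEC TNFa libraries out of the 356. The difference between their counts was thus not tested. A peak in any of the 4 compared libraries was present in 115 of the 356.

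The 23 higher regions had no peak in either day 1 control, and 13 of them had a peak in 1 TeloHAEC TNFa library while 10 had none. In the deeper day 0 controls, 7 of the 23 had a peak in at least 1 library. The largest differences were at chr16:28182744-28183898, with 614 and 779 scaled bp with IL1b (log2 difference 2.16, SE 0.290, limma adjusted p = 0.00068), and at chr1:203562140-203562997, with 620 and 767 (log2 difference 2.16, SE 0.174, limma adjusted p = 6.7e-06). At chr3:71544901-71546048 the IL1b values were 624 and 607 and the log2 difference 2.03, but the day 0 controls had 694 and 388 scaled bp there, the higher of which exceeds both IL1b values. The other 2 regions had no peak in any TeloHAEC control. The region lower with IL1b, chr5:321386-321706, had no peak with IL1b and 560 and 336 scaled bp in the controls (log2 difference -1.67, SE 0.327, limma adjusted p = 0.011). The count of 24 became 13 without control replicate 1, whose list was the shortest.

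Untreated TeloHAEC cells were compared with Eahy926 cells given VEGF, since both media then held VEGF and neither group was used in the choice of regions. Of the 356 regions, 2 were higher in TeloHAEC and 20 higher in Eahy926 (limma, adjusted p under 0.05), or 0.562% and 5.62%, against 8.11% and 9.29% of all 68601 tested. Both shares were below the background, and 124 of the 356 had a peak in a compared library. The choice left out regions with an Eahy926 control peak and regions with a peak in both TeloHAEC TNFa libraries. This favours low shares in both directions, so no conclusion is drawn from them. Higher in TeloHAEC were chr8:1777187-1778136, with the control values given above (log2 difference 2.80, SE 0.477, limma adjusted p = 0.0013), and chr1:37944755-37945328, with 756 and 508 scaled bp (log2 difference 2.04, SE 0.406, limma adjusted p = 0.0039). Neither had a peak in the VEGF libraries of Eahy926.

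The 20 regions higher in Eahy926 had no peak in either TeloHAEC control of day 1. Eahy926 with VEGF had 617 and 554 scaled bp at chr7:78416878-78417813 (log2 difference -1.97, SE 0.348, limma adjusted p = 0.0016), 402 and 627 at chr4:83807981-83808725 (log2 difference -1.82) and 308 and 683 at chr5:71124772-71125450 (log2 difference -1.74, SE 0.454, limma adjusted p = 0.019). In the last the VEGF replicates differed by more than the smaller of them. This comparison shares its VEGF libraries with the comparison of IL1b and VEGF, and its TeloHAEC controls with that of IL1b in TeloHAEC. The count of 22 became 50 without VEGF replicate 1 and 41 without VEGF replicate 2, and 14 with peaks at a -log10 q of 3 or more.

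The lines were then compared under IL1b, the cytokine that played no part in the choice. Of the 356 regions, 31 were higher in TeloHAEC and 3 higher in Eahy926 (limma, adjusted p under 0.05), or 8.71% and 0.843%, against 15.4% and 9.02% of all 68601 tested. Among the 268 regions with peaks in both TeloHAEC TNFa libraries, 187 were higher in TeloHAEC and 0 in Eahy926, and 219 differed either way at an unadjusted p under 0.05 (limma). The choice put regions with a peak in both TeloHAEC TNFa libraries in the 268 and took them out of the 356. The difference between these counts was thus not tested. Both shares of the 356 were below the background, which the choice favours here too. It left out regions with an Eahy926 control peak or with a peak in both TeloHAEC TNFa libraries. The split depended on the Eahy926 IL1b libraries, and whether list length played a part was not tested. Without replicate 2, whose list is short (14.1 Mb against 29.5 and 24.1 Mb in TeloHAEC), 22 regions were higher in TeloHAEC and 28 in Eahy926, and without replicate 1 it was 23 and 12. In 10-kb bins, 47 of the 202 that hold the regions were higher in TeloHAEC and 29 in Eahy926. The share over all 36576 bins was not determined, so these counts have no background to be read against.

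Higher in TeloHAEC by the largest differences were the same 3 regions as against the TeloHAEC control, chr16:28182744-28183898 (log2 difference 2.16), chr1:203562140-203562997 (2.16) and chr3:71544901-71546048 (2.03). Neither the day 1 TeloHAEC controls nor the Eahy926 IL1b libraries had a peak there, and both comparisons share the TeloHAEC IL1b libraries. The 3 higher in Eahy926 were chr4:129196829-129197553 (log2 difference -2.25, SE 0.077, limma adjusted p = 3.6e-09), chr2:162256882-162257402 (-1.95, SE 0.309, limma adjusted p = 0.00065) and chr6:52374946-52375452 (-1.74, SE 0.093, limma adjusted p = 7.1e-08). All 3 are among the 4 with a peak in both Eahy926 IL1b libraries, and no TeloHAEC IL1b library had a peak there. With peaks at a -log10 q of 3 or more, the differences at chr2:162256882-162257402 and chr6:52374946-52375452 fell to 0. The region chr4:129196829-129197553 was still called.

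**Figure D5:**
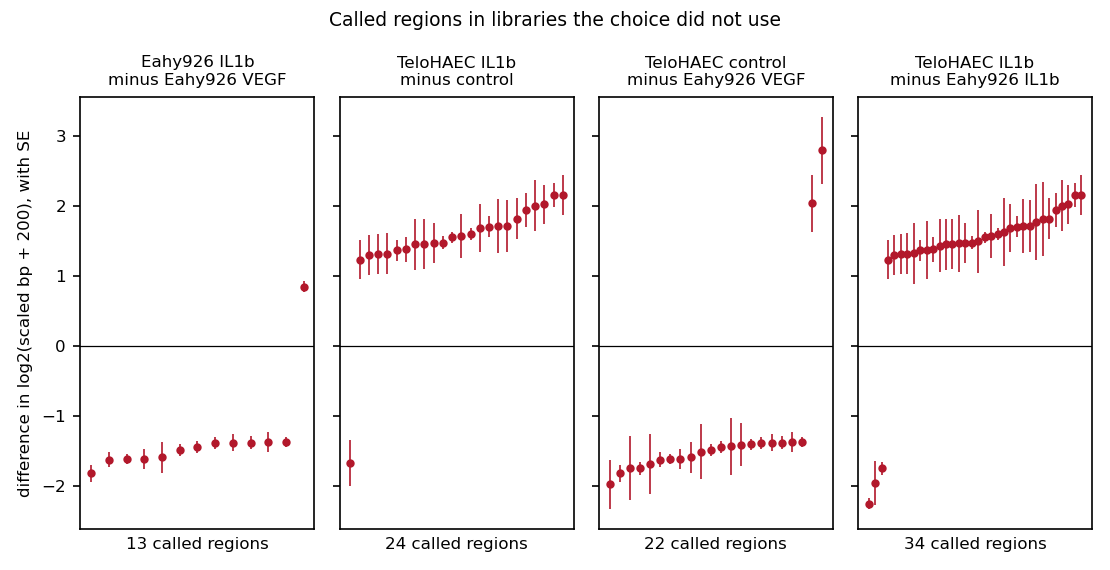
Differences in log2(scaled bp + 200), with SE, of the called regions among the 356 in the 4 comparisons between groups that the choice did not use, sorted within each panel. Positive values are higher in the group named first. The counts are 13, 24, 22 and 34.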

How the data were processed

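H3K27ac ChIP-seq peak lists of 24 libraries (20 ChIP, 4 input) were used. Bowtie2, MACS2 and the build hg19 are named in the submitters' processing notes. The authors called peaks with MACS 2.1.1.20160309 in each library separately, with no input file (p cutoff 0.001, summits called, at most 1 tag at a position, regional background over 10000 bp), per the file headers. The deposited pileup is a signal of stacked fragments, not scaled for depth. The deposited -log10 q tests it against the library's own background, and the deposited ratio, fold enrichment, divides the pileup by that background. The headers say that q was not calculated, yet the deposited q column held values, which were used. Deposited -log10 p only ranked peaks in alternative settings.

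Computed here were the merged regions, the scaled lengths and the tests. The 68601 regions with a peak in at least 2 ChIP libraries were fitted as log2(scaled bp + 200) with limma 3.58.1 (R 4.3.3; lmFit, contrasts.fit, eBayes), with 10 group means and 10 residual degrees of freedom, with Benjamini-Hochberg adjustment across all 68601. Samples were grouped by line, treatment and library day. The labels call the libraries of a group biological replicates without naming separate cultures, so p values measure the spread between these libraries. Merging and the fit were tested on simulated data. Regions and figures were made in Python 3.11.15 (pandas 2.3.3, numpy 2.4.6; matplotlib 3.10.9 for figures).

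The regions, tests and naming rule were chosen with earlier results of these data known. Regions named are the 10 with the largest mean scaled length in the Eahy926 TNFa pair; the 5 with the highest smaller score among those with a peak in that pair alone; up to 3 called regions per comparison and direction with the largest log2 difference and groups that do not overlap; the 2 stretches with the most regions; and 3 regions on each side of the threshold. Gene names, gene lists, cell type markers and motifs were planned but not run, since no hg19 genome or annotation was at hand. The comparison of constant neighbours was added after the data were seen.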

Additional observations from a re-analysis of the deposited data

How the results depend on the processing

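The number of regions kept and their identity depended on different settings. With the day 1 controls alone the criteria kept 1042 regions in place of 356, and leaving out 1 library at a time gave 293 to 2157 (2157 without Eahy926 TNFa replicate 1, 1202 without replicate 2). The 356 were all among those kept with day 1 controls alone and without either TNFa library. Settings of list length changed identity. With each library cut to the same number of top peaks 374 regions were kept, but 81 of the 356 were among them, and with an equal covered length of 13.0 Mb 396 were kept, with 8 of the 356 among them. A -log10 q of 3 kept 333 regions, with 230 of the 356 among them.

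Below, the comparisons are IL1b against VEGF in Eahy926, IL1b against control in TeloHAEC, TeloHAEC control against Eahy926 with VEGF, the lines under IL1b, and constant neighbours, with 13, 24, 22, 34 and 2 called. In that order, an equal number of top peaks gave 2, 4, 7, 5 and 1, and an equal covered length 1, 3, 1, 3 and 4. With these settings fewer of the 356 entered the fit (149 and 24). The 202 bins of 10 kb that hold the regions gave 6 for the first, 54 for the third and 76 for the fourth. For the fifth, 113 bins gave 1. Shares over all bins were not determined. The third gave 14 with a -log10 q of 3, and the first gave 4 with the compared groups fitted alone. Leaving out 1 library gave 20 to 36, 13 to 30, 21 to 50, 35 to 50, and 1 to 9. The lone library left in a group was assumed to vary like the other groups. Of 289 recomputed values of 21 named differences, 242 kept their direction and call, 43 kept the direction and lost the call, 3 fell to a difference of 0, and 1 reversed: IL1b against VEGF at chr4:129196829-129197553 was -0.012 on the log2 scale in its 10-kb bin. The cause of these changes was not tested beyond the smaller numbers fitted.

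Replicate numbers recur in every group, but the labels tie them to no shared culture, and deviations of same-numbered libraries correlated between -0.05 and 0.04. With the replicate number as a block the counts were 13, 24, 23, 35 and 3. Depth limits all absences: a region without a called peak may be acetylated below what 3843129 to 7122108 tags could show on day 1.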
